A study of Homo sapiens with 6 samples.

Results

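The 8 genes CDKN1A, CDKN1B, CDKN1C, CDKN2A, CDKN2B, CDKN2C, CDKN2D and CDKN3 encode proteins that hold back the cyclin-dependent kinases (CDKs). They were chosen by name, and all 8 were found among the 58735 genes of the deposited count table, each in 1 row. CDKN1A (p21), CDKN1B (p27) and CDKN1C (p57) form the CIP/KIP family. CDKN2A (p16 and, from another reading frame, p14ARF), CDKN2B (p15), CDKN2C (p18) and CDKN2D (p19) form the INK4 family. CDKN3 encodes a phosphatase that acts on CDK2. Their mRNA was measured in SKOV3ip1, a line derived from the human ovarian adenocarcinoma line SKOV3, labelled as wild type. The labels call the material both cells and tumors, and the protocols describe transfection of cultured cells, as which it is taken here. One group of 3 libraries received BARD1 siRNA and the other group of 3 received Control siRNA, in each case 2 µg of siRNA with 6 µL of a cationic lipid reagent, and RNA was taken after 48 h. BARD1 pairs with BRCA1 through its RING domain in a ubiquitin ligase that acts in DNA repair. The titles call the 3 libraries of a group biological replicates, and nothing in the labels says whether they were transfected on separate days, so p-values describe the spread among these 6 cultures only. The labels do not say how many different siRNAs were used, so an effect of less BARD1 and an effect of the siRNA itself cannot be told apart.

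CDKs drive the cell cycle when a cyclin binds them. CIP/KIP proteins bind complexes of cyclins with CDK2, and they also bind cyclin D complexes, whereas INK4 proteins bind CDK4 and CDK6 alone and keep cyclin D away from them. CDKN3 removes the activating phosphate from CDK2, and its mRNA is known to peak in G2 and mitosis in cycling cells. CDKN1A is known to be induced by several stress and growth factor pathways.

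The silencing itself was visible in every library. BARD1 had 96, 110 and 169 counts with BARD1 siRNA, against 805, 644 and 887 with Control siRNA. That came to 7.38 ± 2.04 CPM with BARD1 siRNA and 44.3 ± 5.85 CPM with Control siRNA (SD, n = 3 each). The log2 fold change was −2.58 (SE 0.14, edgeR adjusted p = 1.21e-15). CPM are read counts normalised to the library size after TMM scaling. Libraries held 16621108 to 17743404 counts, and after this scaling 1 CPM stood for 16.2 to 18.03 reads. Of 12 epithelial markers of ovarian carcinoma, 10 were tested, of which 2 rose and 5 fell (70% called, beside 42.3% of all tested genes). CD24 stood at 259 CPM with BARD1 siRNA and 1029 CPM with Control siRNA, KRT7 at 134 CPM with BARD1 siRNA and 264 CPM with Control siRNA, and KRT19 at 173 CPM with BARD1 siRNA and 263 CPM with Control siRNA. PAX8, which rose, stood at 589 CPM with BARD1 siRNA and 350 CPM with Control siRNA. Among markers named after their values were seen, KRT8 stood at 1276 CPM with BARD1 siRNA and 1232 CPM with Control siRNA, WT1 had 20 counts with BARD1 siRNA and 25 with Control siRNA, and MUC16 had 13 with BARD1 siRNA and 12 with Control siRNA. The summed level of the 12 epithelial markers was 4658 to 4786 CPM with BARD1 siRNA and 5403 to 5715 CPM with Control siRNA. The leukocyte genes PTPRC, CD3E and LYZ were at 0 in all 6 libraries, and the 6 leukocyte genes together reached at most 1.17 CPM with BARD1 siRNA and 1.59 CPM with Control siRNA. The 6 endothelial genes summed to 0.862 to 1.42 CPM with BARD1 siRNA and 0.777 to 1.71 CPM with Control siRNA. The 6 fibroblast genes summed to 16.8 to 22.2 CPM with BARD1 siRNA and 26.1 to 26.9 CPM with Control siRNA, mostly through COL3A1 (10.8 CPM with BARD1 siRNA and 19.2 CPM with Control siRNA). The epithelial and fibroblast sums thus moved with the treatment, and their part in the results was not tested.

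The promoters of the 3 genes that changed most are shown, with the matches of 1 or 2 motifs marked in each. Sequences are from RefSeq (GRCh38.p14), which had entries for 7 of the 8 genes, and the window searched was the 250 bases before each annotated start. The plus strand is printed 5′ to 3′ and capitals mark the motif matches. In the first pair, from the CDKN1A promoter, capitals are GC boxes (GGGCGG). In the second pair, from the CDKN2C promoter at its middle start, they are E2F core motifs (TTCCCGC on either strand). In the third pair, from CDKN3, they are a CHR element (TTTGAA, here on the minus strand) and CCAAT boxes (the second on the minus strand). Stretches within annotated exons are limited to 30 bases around a match.
CDKN1A chr6:36678464-36678657: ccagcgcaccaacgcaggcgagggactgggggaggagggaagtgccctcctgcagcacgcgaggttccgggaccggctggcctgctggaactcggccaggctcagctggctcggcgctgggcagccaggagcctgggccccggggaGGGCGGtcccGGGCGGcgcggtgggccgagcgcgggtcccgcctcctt
CDKN1A chr6:36678660-36678689: ggcgggcccGGGCGGGGCGGttgtatatca
CDKN2C chr1:50968564-50968593: gagagcgggagGCGGGAAtgagggcgcggg
CDKN2C chr1:50968661-50968690: ggcgcccggccTTCCCGCtcccgcggcgct
CDKN3 chr14:54396757-54396848: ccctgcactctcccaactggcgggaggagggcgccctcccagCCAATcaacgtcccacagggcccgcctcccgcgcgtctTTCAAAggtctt
CDKN3 chr14:54396912-54396941: gaagcggatctgATTGGttgctggaagacg

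CDKN1A had 4 GC boxes, at 104, 94, 45 and 40 bases before the start, and the last pair overlap. GC boxes were also found in CDKN2C, which fell, with 5 at its middle start. CDKN1B, CDKN2A, CDKN2B and CDKN2D had them too, so that of the genes searched only CDKN3 had none. A GC box, the motif bound by SP1 and KLF proteins, was present on either strand in 42.5% of 34943 promoter windows of the same length. CDKN2C was the only one of the 7 genes with an E2F core (TTCCCGC, the variant TTGGCGC, the variant TTCGCGC or the variant TTGCCGC, on either strand), at 131 and 34 bases before its middle start and at neither of its other starts. Such a core was found in 10.8% of all windows. CDKN3 was the only one of the 7 with a CHR, at 170 bases, and had CCAAT boxes at 208 and 83 bases. CCAAT boxes were not particular to it. They were also found in CDKN1B (174 and 50 bases), CDKN2D (234 bases) and CDKN2C (95 bases before its last start). CHR and CCAAT motifs, which often occur together in promoters of G2 and mitosis genes, were found in 13.4% and 32.04% of all windows. None of the windows of the 7 genes matched the motifs searched for AP-1 (TGANTCA, 6.59% of all windows), CRE (TGACGTCA, 1.63%), the C/EBP-ATF element (TGATGNAA, 3.15%) or NF-kappaB (1.73%). These letters describe the windows, and no binding was measured.

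Of the 8 genes, CDKN1A and CDKN1C rose with BARD1 siRNA, CDKN2C, CDKN2D and CDKN3 fell, CDKN1B did not pass the test, and CDKN2A and CDKN2B had too few reads to enter it. The background was high, since 42.3% of the 15271 tested genes were called at an adjusted p under 0.05, with 22% of genes higher and 20.3% lower. In numbers, 3355 genes were higher and 3107 lower, against 2815 and 3975 with upper-quartile scaling, so the direction of small changes depends on the scaling. The 3 libraries of one group lay apart from the 3 of the other for 50.4% of tested genes, and for 5 of the 6 tested inhibitors. The median log2 fold change of the 6 was −0.24, against −0.01 for all tested genes, and the extremes were far apart at 3.25 and −2.09.

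**Figure D1:**
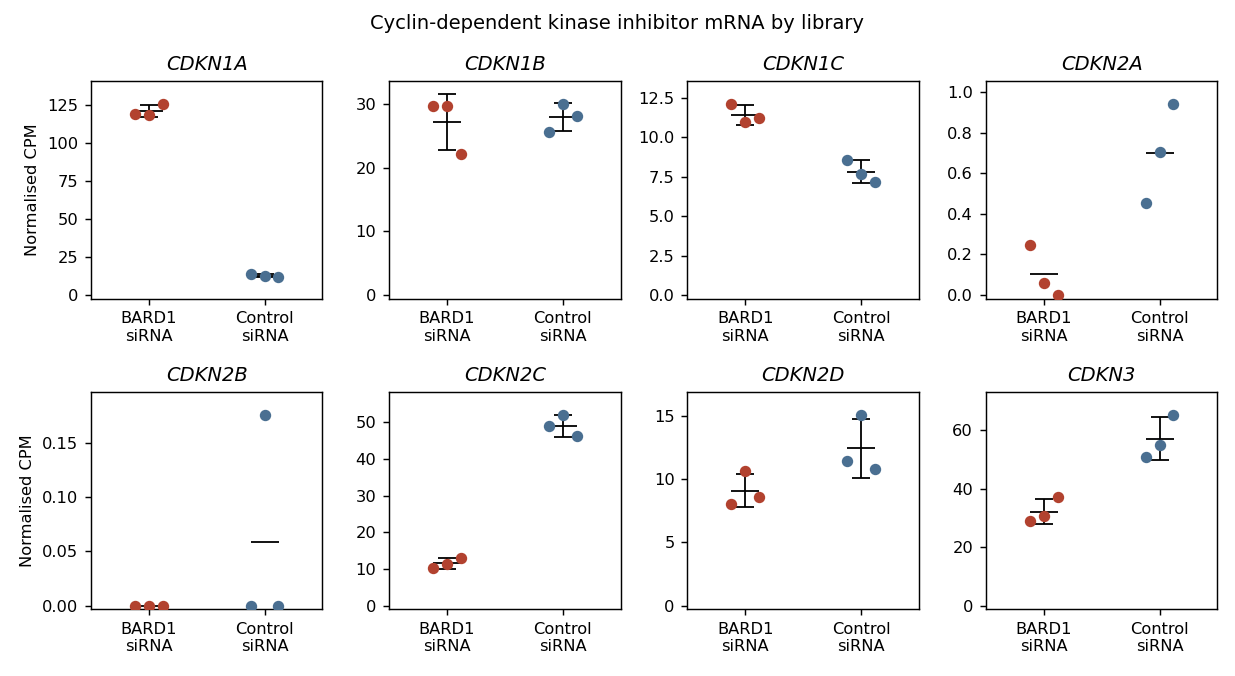
Normalised CPM of the 8 inhibitor genes in each library, BARD1 siRNA left and Control siRNA right, with 3 libraries each and a separate linear scale for each gene. Horizontal lines are means and bars are SD (bars are left out for CDKN2A and CDKN2B). The groups do not overlap for CDKN1A, CDKN1C, CDKN2A, CDKN2C, CDKN2D and CDKN3, and CDKN1A is the gene with the widest gap, at 121 CPM with BARD1 siRNA and 12.8 CPM with Control siRNA.

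Within the CIP/KIP family the increase lay mostly in CDKN1A. CDKN1A (ENSG00000124762, GRCh38 chromosome 6, 36676460 to 36687339, plus strand) had 1932, 2002 and 2188 counts with BARD1 siRNA, against 242, 217 and 212 with Control siRNA. The normalised values were 118.9, 118.6 and 125.7 CPM with BARD1 siRNA and 13.8, 12.7 and 11.8 CPM with Control siRNA. Every BARD1 siRNA library was far above every Control siRNA library, and the libraries of a group lay close together. The mean of 121 ± 4.03 CPM was 9.49-fold that of 12.8 ± 1.01 CPM in Control siRNA cells (log2 fold change 3.25, SE 0.08, 95% interval 3.08 to 3.41, edgeR adjusted p = 8.85e-37). It ranked 54 from the highest log2 fold change of the 15271 tested genes. In bulk RNA, a change in every cell and a change in a share of the cells cannot be told apart, here and in the results that follow.

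CDKN1C (ENSG00000129757, chromosome 11, 2883213 to 2885773, minus strand) encodes the inhibitor p57 and is imprinted in humans, expressed mainly from the maternal allele. It had 197, 185 and 195 counts with BARD1 siRNA, against 151, 131 and 129 with Control siRNA. The values were 12.1, 10.96 and 11.2 CPM with BARD1 siRNA and 8.60, 7.69 and 7.16 CPM with Control siRNA. The groups did not overlap, and CDKN1C rose 1.46-fold (log2 fold change 0.55, SE 0.16, 95% interval 0.24 to 0.86, edgeR adjusted p = 0.00319).

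CDKN1B (ENSG00000111276, chromosome 12, 12715058 to 12722371, plus strand) encodes p27, which is controlled to a large extent by its degradation. It had 484, 501 and 386 counts with BARD1 siRNA, against 450, 512 and 509 with Control siRNA. The groups overlapped at 29.8, 29.7 and 22.2 CPM with BARD1 siRNA and 25.6, 30.1 and 28.2 CPM with Control siRNA, and the third BARD1 siRNA library was the lowest of all 6. The means were 27.2 ± 4.36 CPM with BARD1 siRNA and 27.97 ± 2.23 CPM with Control siRNA (log2 fold change −0.04 ± 0.11 SE, edgeR adjusted p = 0.795). Its 95% interval of the fold, 0.839 to 1.13, leaves out changes of the size seen for CDKN1C and for CDKN1A. Its sign turned when single libraries were left out, to 0.012 without the second Control siRNA library and 0.086 without the third BARD1 siRNA library.

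Both INK4 genes that could be tested fell. CDKN2C (ENSG00000123080, chromosome 1, 50960745 to 50974633, plus strand), the gene of p18, which inhibits CDK4 and CDK6, had 165, 190 and 228 counts with BARD1 siRNA, against 859, 888 and 834 with Control siRNA. The values were 10.2, 11.3 and 13.1 CPM with BARD1 siRNA and 48.9, 52.1 and 46.3 CPM with Control siRNA. The highest BARD1 siRNA library was well under the lowest Control siRNA library. CDKN2C fell by 2.09 on the log2 scale (SE 0.10, 95% interval −2.30 to −1.88, edgeR adjusted p = 1.71e-23), its level in Control siRNA cells being 4.26 times that in BARD1 siRNA cells. It ranked 44 from the lowest log2 fold change of all 15271 tested genes. FAF1, which begins 481 bases away on the opposite strand, stood at 85.3 ± 5.90 CPM with BARD1 siRNA and 91.4 ± 0.631 CPM with Control siRNA (log2 fold change −0.10, edgeR adjusted p = 0.215); it was looked at after the value of CDKN2C was seen.

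CDKN2D (ENSG00000129355, chromosome 19, 10566462 to 10569059, minus strand), which encodes the INK4 protein p19, changed less and less certainly. It had 131, 179 and 150 counts with BARD1 siRNA, against 201, 257 and 194 with Control siRNA. The values were 8.06, 10.6 and 8.62 CPM with BARD1 siRNA and 11.4, 15.1 and 10.8 CPM with Control siRNA, so that the highest BARD1 siRNA library was just under the lowest Control siRNA library. CDKN2D fell by 0.45 on the log2 scale (SE 0.16, 95% interval −0.76 to −0.14, edgeR adjusted p = 0.0162). The call was lost without the second Control siRNA library (log2 fold change −0.29, adjusted p = 0.183), the first BARD1 siRNA library (−0.37, adjusted p = 0.0827) or the third BARD1 siRNA library (−0.41, adjusted p = 0.0595).

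CDKN2A and CDKN2B lie next to each other on chromosome 9 and were hardly expressed. CDKN2A (ENSG00000147889, 21967753 to 21995301, minus strand) had 4, 1 and 0 counts with BARD1 siRNA, against 8, 12 and 17 with Control siRNA. The sums of 5 counts with BARD1 siRNA and 37 with Control siRNA gave a ratio of 0.141, with an exact 95% interval of 0.0432 to 0.359 that covers counting error only. It did not pass the filter on low counts. With no such filter edgeR gave a log2 fold change of −2.73 (SE 0.93, adjusted p = 0.0190), a fit that depends on how values near 0 are handled. Reads of p16 and p14ARF transcripts are not separated in a count per gene.

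CDKN2B (ENSG00000147883, 22002903 to 22009363, minus strand) had 0 counts in all 3 BARD1 siRNA libraries, against 0, 3 and 0 with Control siRNA. Both sums are at or under 3 counts over a group, which corresponds to 0.0594 CPM with BARD1 siRNA and 0.0570 CPM with Control siRNA, so a difference was not detectable at this depth. CDKN2B-AS1, the antisense RNA that overlaps both genes, had 0 counts with BARD1 siRNA and 6 with Control siRNA.

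CDKN3 (ENSG00000100526, chromosome 14, 54396849 to 54420218, plus strand) had 469, 516 and 644 counts with BARD1 siRNA, against 894, 935 and 1176 with Control siRNA. The values were 28.9, 30.6 and 37.0 CPM with BARD1 siRNA and 50.9, 54.9 and 65.2 CPM with Control siRNA. The groups did not overlap. CDKN3 fell by 0.83 on the log2 scale (SE 0.09, 95% interval −1.02 to −0.64, edgeR adjusted p = 9.36e-10). Its means were 32.1 ± 4.29 CPM with BARD1 siRNA and 57.01 ± 7.40 CPM with Control siRNA.

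Among the 8 genes, the order of mRNA levels changed with the treatment. Levels were compared between genes as CPM per kb of the deposited gene length. With BARD1 siRNA the order was CDKN1A (39.7 ± 1.32), CDKN3 (17.5 ± 2.34), CDKN1B (9.68 ± 1.55), CDKN2D (6.05 ± 0.888), CDKN1C (4.61 ± 0.248), CDKN2C (3.47 ± 0.449), CDKN2A and CDKN2B, and no neighbours among the first 6 overlapped between libraries. With Control siRNA it was CDKN3 (31.1 ± 4.03), CDKN2C (14.8 ± 0.887), CDKN1B (9.95 ± 0.794), CDKN2D (8.27 ± 1.55), CDKN1A (4.18 ± 0.331), CDKN1C (3.15 ± 0.294), CDKN2A and CDKN2B. There, CDKN1B and CDKN2D overlapped between libraries. Per length, CDKN2C thus stood last of the first 6 with BARD1 siRNA and next after CDKN3 with Control siRNA. CDKN1A stood first with BARD1 siRNA and only after CDKN2D with Control siRNA. Part of this order rests on the lengths. In CPM, CDKN2C (11.5) was above CDKN1C (11.4) and CDKN2D (9.1) with BARD1 siRNA, and CDKN1A (12.8) was above CDKN2D (12.4) with Control siRNA. CDKN1A was still first with BARD1 siRNA, and CDKN2C still next after CDKN3 with Control siRNA.

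The summed level of the 8 genes was 78.7 to 83.5 CPM per kb with BARD1 siRNA and 67.3 to 73.8 CPM per kb with Control siRNA, a ratio of means of 1.13, while its make-up shifted by more. CDKN1A made up 49.0 ± 0.839% of the sum with BARD1 siRNA and 5.87 ± 0.761% with Control siRNA. CDKN2C made up 4.27 ± 0.426% with BARD1 siRNA and 20.7 ± 1.57% with Control siRNA, and CDKN3 made up 21.6 ± 2.26% with BARD1 siRNA and 43.3 ± 4.29% with Control siRNA. By family, the CIP/KIP sum was 54.0 ± 0.438 CPM per kb with BARD1 siRNA and 17.3 ± 0.616 with Control siRNA. The INK4 sum was 9.54 ± 0.997 CPM per kb with BARD1 siRNA and 23.2 ± 2.42 with Control siRNA.

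**Figure D2:**
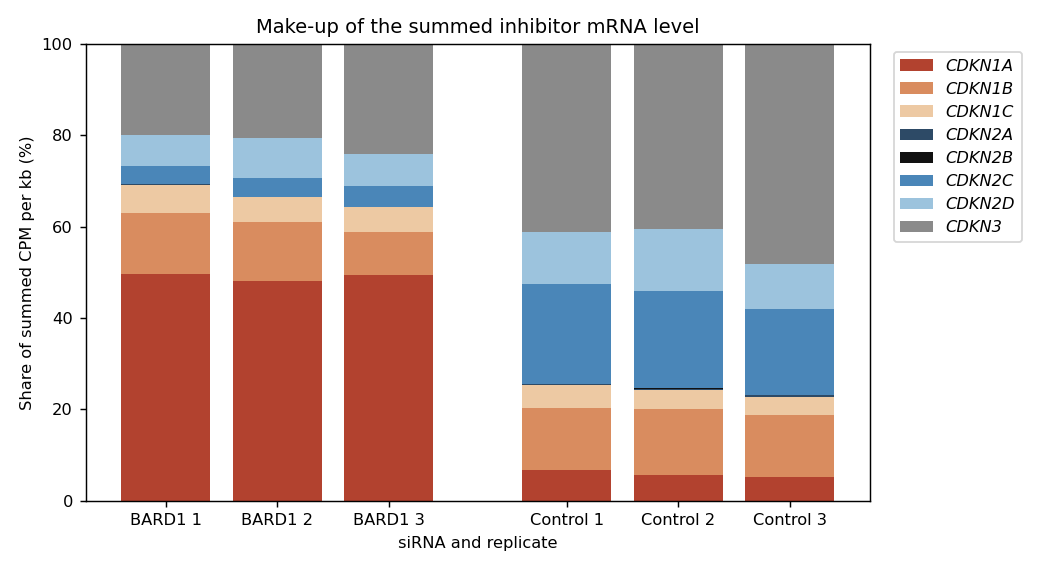
Share of each inhibitor gene in the summed level of all 8, in percent of CPM per kb, as 1 stacked bar for each library, with BARD1 siRNA left and Control siRNA right. CDKN1A takes 49.0% on average in the BARD1 siRNA libraries and 5.87% in the Control siRNA libraries, and the shares of CDKN2C and CDKN3 are smaller with BARD1 siRNA.

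Within each family the balance between the main members, per length, turned over. The log2 ratio of CDKN1A to CDKN1B, per length, was 1.88, 1.88 and 2.39 with BARD1 siRNA and −1.01, −1.36 and −1.38 with Control siRNA. CDKN1A mRNA was therefore above CDKN1B in every BARD1 siRNA library and below it in every Control siRNA library. The log2 ratio of CDKN2C to CDKN2D, per length, was −0.81, −1.06 and −0.54 with BARD1 siRNA and 0.95, 0.65 and 0.96 with Control siRNA. These opposite signs rest on the division by gene length. Without it CDKN2C had more counts than CDKN2D in every library, also with BARD1 siRNA (165, 190 and 228 against 131, 179 and 150). The differences between group means were 3.30 for the first ratio and −1.66 for the second. Each had a two-sided exact permutation p of 0.1, which is the smallest that 3 against 3 libraries can give.

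The kinases and cyclins that these proteins bind were mostly lower. Of 12 CDK and cyclin genes, 9 fell and 2 rose (91.7% called, beside 42.3% of all tested genes). The median log2 fold change was −0.49. CDK6, a D-type cyclin partner and INK4 target, rose to 264 ± 8.10 CPM in BARD1 siRNA cells, against 168 ± 13.4 CPM in Control siRNA cells (log2 fold change 0.65). CDK4, the other INK4 target, fell to 115 ± 4.82 CPM in BARD1 siRNA cells, against 144 ± 6.77 CPM in Control siRNA cells (−0.32). CCNE1, which encodes cyclin E1, the activator of CDK2, rose by 0.43 on the log2 scale.

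CDK1 and the cyclins of the A and B types all fell. The mitotic kinase CDK1 had a log2 fold change of −0.66, its partners CCNB1 and CCNB2 had −0.82 and −0.84, and CCNA2, which encodes cyclin A2, had −0.73. CCND2 (cyclin D2) fell by 1.03 on the log2 scale and CCNE2 (cyclin E2) fell by 1.21, though CCNE2 shares annotated bases with INTS8 and NDUFAF6, which held more reads. CCND1, which encodes cyclin D1 and was the most abundant of the 12, stood at 487 ± 46.5 CPM with BARD1 siRNA and 511 ± 17.2 CPM with Control siRNA (log2 fold change −0.07, edgeR adjusted p = 0.296). With upper-quartile scaling its adjusted p was 0.0304, and it was 0.0249 without the third BARD1 siRNA library.

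Small decreases of CDK2 (log2 fold change −0.18, edgeR adjusted p = 0.0185) and CCND3 (−0.21, edgeR adjusted p = 0.0463) were near the threshold. CDK2 had −0.17 (adjusted p = 0.0563) without the first BARD1 siRNA library and −0.14 (adjusted p = 0.128) without the second. CCND3 had −0.21 with an adjusted p of 0.0851 in DESeq2, and −0.12 with an adjusted p of 0.334 without the first BARD1 siRNA library. It also lost its call without the first Control siRNA library (−0.23, adjusted p = 0.0701), the second Control siRNA library (−0.16, adjusted p = 0.156) or the second BARD1 siRNA library (−0.18, adjusted p = 0.162). Per length, CDKN1A mRNA was at 39.7 CPM per kb beside 22.4 for CDK2 in BARD1 siRNA cells, and at 4.18 beside 25.3 in Control siRNA cells. CDKN2C was at 3.47 CPM per kb beside 36.4 for CDK4 and 21.5 for CDK6 in BARD1 siRNA cells, and at 14.8 beside 45.4 for CDK4 and 13.7 for CDK6 in Control siRNA cells.

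**Figure D3:**
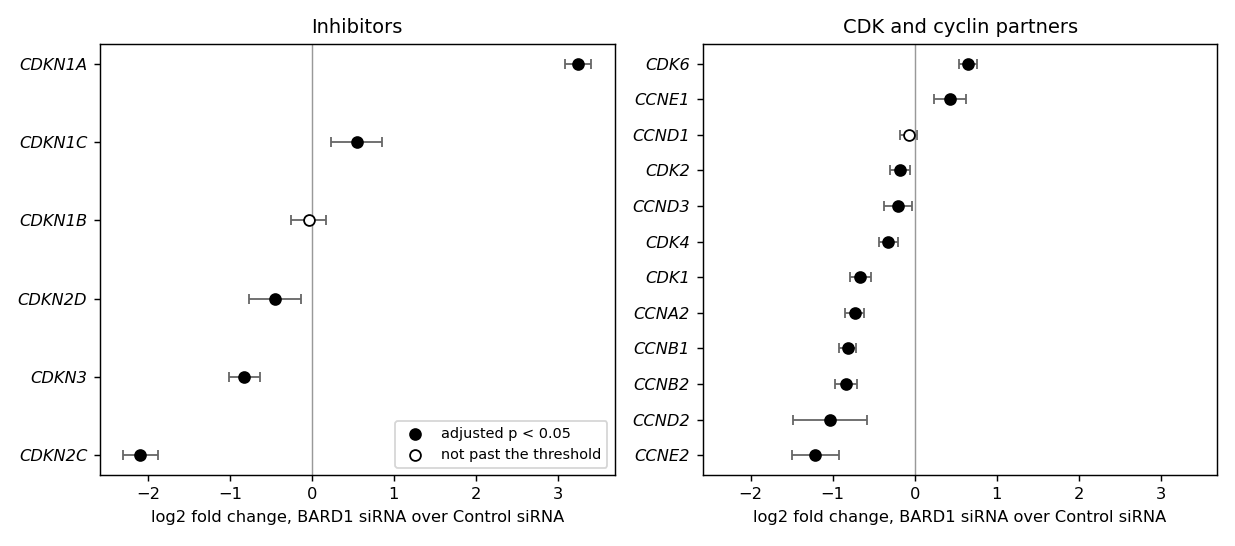
Log2 fold change of BARD1 siRNA over Control siRNA, with 95% intervals, for the 6 tested inhibitors (left) and their 12 CDK and cyclin partners (right), n = 3 libraries each. Filled points passed an edgeR adjusted p of 0.05 and open points did not. CDKN1A at 3.25 and CDKN2C at −2.09 lie outside the span of all the partners, which runs from 0.65 for CDK6 to −1.21 for CCNE2.

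Pocket proteins and other regulators of CDK activity changed by less. Of 17 such genes, 4 rose and 6 fell (3 and 8 with upper-quartile scaling), or 58.8% called beside 42.3% of all tested genes. The median log2 fold change was −0.13 (−0.19 with upper-quartile scaling). Only 2 rose without the first Control siRNA library, and only 3 fell without the second BARD1 siRNA library. The pocket protein RBL1 (p107) fell by 0.38, while RB1, named after its value was seen and the main substrate of cyclin D kinases, stood at 99.7 ± 3.00 CPM with BARD1 siRNA and 109 ± 10.9 CPM with Control siRNA (−0.12, edgeR adjusted p = 0.115, and 0.0123 with upper-quartile scaling). CDC25C, a phosphatase that activates CDK1, fell by 1.08 on the log2 scale and overlaps FAM53C, which held more reads. CDK2AP2, whose product is related to a CDK2-binding protein, rose by 0.77, and CDK7, the CDK-activating kinase, rose by 0.40.

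Among 29 transcriptional regulators known to act on inhibitor genes, 13 rose and 7 fell (11 and 10 with upper-quartile scaling). In the main fit 69.0% were thus called, beside 42.3% of all tested genes. The median log2 fold change was 0.09 (0.03 with upper-quartile scaling). KDM6B, a demethylase of the Polycomb mark H3K27me3 known to activate the CDKN2A locus, rose by 2.42, KLF4, an activator of CDKN1A, by 2.36, JUN by 1.89 and ETS1 by 1.84 on the log2 scale. MYC, a repressor of CDKN1A, also rose, to 225 ± 9.80 CPM in BARD1 siRNA cells, against 84.5 ± 4.26 CPM in Control siRNA cells (log2 fold change 1.41). Named after their values were seen were also ID1, the Polycomb subunits and the forkhead factors. ID1, a repressor of CDKN2A, fell by 1.74. Of the 8 Polycomb subunits of the list, 5 fell and 2 rose: EZH2 had a log2 fold change of −0.66, SUZ12 −0.60, EED −0.33, CBX8 −0.37, BMI1 −0.21, RING1 0.20 and RNF2 0.24, while CBX7 had −0.38 with an edgeR adjusted p of 0.0552. The calls on CBX8, BMI1, RING1 and RNF2 were each lost in at least 2 of the fits that left out a library. Of the forkhead factors, which activate CDKN1B, FOXO1 and FOXO3 rose by 0.90 and 0.60, and FOXO4 had a log2 fold change of −0.21 (edgeR adjusted p = 0.492). CDKN1B itself did not pass the test.

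The 17 genes listed for inhibitor turnover, some of which act on other proteins too, were mostly lower. Of them 10 fell and 2 rose (70.6% called, beside 42.3% of all tested genes), and the median log2 fold change was −0.28. SKP2, the F-box protein that targets p27, fell to 58.7 ± 3.71 CPM in BARD1 siRNA cells, against 78.8 ± 2.22 CPM in Control siRNA cells (−0.42, edgeR adjusted p = 1.16e-06). PCNA, the replication clamp on which p21 is degraded, fell by 0.69, the anaphase-promoting complex activator CDC20 by 0.63, and PSMD10 (gankyrin), which binds CDK4, by 0.50. FBXW7, the F-box protein for cyclin E, rose by 0.74. Protein was not measured.

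**Figure D4:**
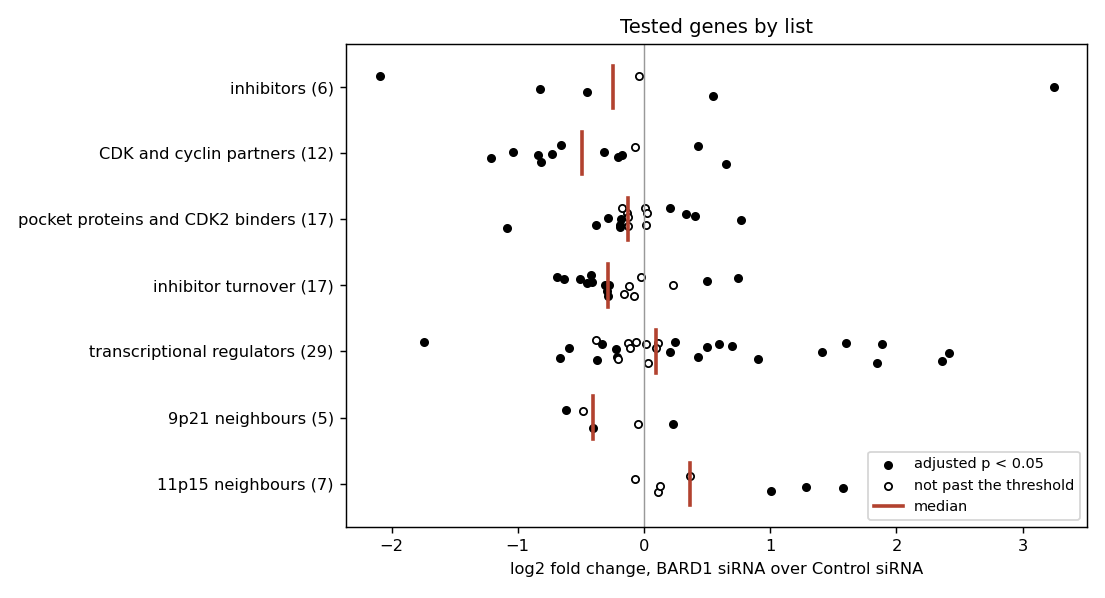
Log2 fold change of BARD1 siRNA over Control siRNA for every tested gene of the inhibitors and of 6 related lists, with the number tested in brackets. Filled points passed an edgeR adjusted p of 0.05, open points did not, and the red line is the median, which is −0.49 for CDK and cyclin partners and −0.28 for inhibitor turnover.

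Neighbouring genes were compared with the inhibitors at the 2 loci where inhibitors are known to be co-regulated or co-deleted. On 9p21, MTAP, the metabolic gene next to CDKN2A that is often deleted with it in tumours, was well expressed at 57.6 ± 3.73 CPM with BARD1 siRNA and 49.0 ± 3.70 CPM with Control siRNA (log2 fold change 0.23, edgeR adjusted p = 0.0137). It had 0.17 (adjusted p = 0.0775) with upper-quartile scaling, 0.17 (adjusted p = 0.0836) without the second Control siRNA library and 0.18 (adjusted p = 0.124) without the second BARD1 siRNA library. FOCAD fell by 0.62 and HACD4 by 0.40. In the 5 fits that left out a library and lost the call on HACD4, its log2 fold change was −0.42 to −0.33, with adjusted p of 0.0521 to 0.132. Of the 11 genes found there, 5 were tested, of which 1 rose and 2 fell (60% called, beside 42.3% of all tested genes). These counts were 0 and 2 with upper-quartile scaling. They were 0 and 1 without the second Control siRNA library or the second BARD1 siRNA library. CDKN2A-DT, IFNB1 and ELAVL2 had 0 counts in all 6 libraries.

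On 11p15, in the imprinted cluster that holds CDKN1C, 3 of 7 tested neighbours rose and none fell. That is 42.9% called, beside 42.3% of all tested genes. NAP1L4, named for this, was also called, as lower, with upper-quartile scaling (adjusted p = 0.0325). Without the second Control siRNA library 5 neighbours rose, KCNQ1 (adjusted p = 0.0303) and TSSC4 (adjusted p = 0.0424) among them. The median log2 fold change was 0.36, and ranged from 0.15 without the first Control siRNA library to 0.74 without the second. PHLDA2, also expressed from the maternal allele, rose to 97.6 CPM in BARD1 siRNA cells, against 32.8 CPM in Control siRNA cells (log2 fold change 1.57). SLC22A18, the gene beside CDKN1C, rose to 2.78 CPM in BARD1 siRNA cells, against 1.14 CPM in Control siRNA cells (1.28), and CARS, a tRNA synthetase gene, rose by 1.01. The antisense RNA KCNQ1OT1, which silences the cluster on the paternal allele, had a log2 fold change of 0.11 (edgeR adjusted p = 0.727) and was named after its value was seen. KCNQ1OT1 (568 reads) shares 91667 annotated bases with KCNQ1 (421 reads), so reads of either may belong to the other. All 3 of the called genes there had larger log2 fold changes than the 0.55 of CDKN1C.

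The genes whose values lay nearest those of CDKN1A over the 6 libraries were DUSP1, HSPA5 and UPP1, among 10842 protein-coding genes whose mean log2 CPM reached 2. Likeness was the root mean square distance of log2 CPM after each gene was centred on its Control siRNA mean, and it was 0.134, 0.145 and 0.146 for the 3 genes. Such a distance selects genes of a like fold change, and does not measure whether they vary together within a group. Their log2 fold changes were 3.32, 3.10 and 3.16. For CDKN2C the nearest were ZFHX4, CD24 and MXRA5, at distances of 0.150, 0.175 and 0.186 and with log2 fold changes of −2.11, −1.99 and −2.13.

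The labels do not say whether the counting used strand, so reads where genes overlap may belong to either gene. The partners of the inhibitor genes held few reads. DINOL, which overlaps 951 bases of CDKN1A on the opposite strand, had 6 counts with BARD1 siRNA and 0 with Control siRNA. AC008115.3, within CDKN1B, had 10 counts with BARD1 siRNA and 8 with Control siRNA. CDKN1A has 8 annotated transcripts with 8 starts and CDKN2C has 3 with 3 starts, and a count per gene does not separate them.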

How the data were processed

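The authors deposited unnormalised read counts for each gene and, in the same table, the length of the gene in bases, used here only for CPM per kb (per 1000 bases). CASAVA, HISAT2 and the build GRCh38 (hg38) are named per the submitters' processing notes, without tool versions, and no source used here names the counting program, annotation or strand setting. All 58735 gene identifiers are found in GENCODE 29, 58724 with the same start and end.

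Counts of 3 BARD1 siRNA and 3 Control siRNA libraries were compared in R 4.3.3 with the robust quasi-likelihood test of edgeR 4.0.16, TMM scaling and group as the only term. The filterByExpr function (minimum count 10, minimum total 15) left 15271 of the 29419 genes with any count. P-values were adjusted over all of these (Benjamini-Hochberg), with a threshold of 0.05. Normalised CPM are means ± SD. Intervals on summed counts cover counting error only. The biological coefficient of variation was 7.19%.

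The genes, lists and motifs were chosen with earlier results of these data known. Named genes are the 8 inhibitors, all CDK and cyclin partners, up to 4 called genes of each other list with the largest absolute change, and SKP2, MTAP, CDKN2B-AS1 and MYC; all others were picked once values were known. Results for 1 further list and the genes named from it are not reported here. The alternatives tried were DESeq2 1.42.0, limma-voom (limma 3.58.1), RLE or upper-quartile scaling, library size alone, other filters, protein-coding genes only, no robust estimation, a replicate block and leaving out each library.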

Additional observations from a re-analysis of the deposited data

How the results depend on the processing

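Of the 6 tested inhibitors, CDKN1A, CDKN1C, CDKN2C and CDKN3 kept their direction and passed the threshold under all 16 alternatives, with log2 fold changes of 3.18 to 3.30, 0.48 to 0.62, −2.20 to −2.01 and −0.94 to −0.72. The log2 fold change of CDKN1B ranged from −0.11 to 0.086 when 1 library was left out, and was 0.012 without Control siRNA replicate 2 and 0.086 without BARD1 siRNA replicate 3, with adjusted p of 0.949 and 0.588 in edgeR. CDKN2D ranged from −0.57 to −0.29 and lost its call in 3 of the fits that left out a library. The number of inhibitors called was 4 to 6 and the number of genes called 5655 to 6437 when 1 library was left out. CDKN2A entered the test in 4 of these fits and without the filter, at −4.29 to −2.16 with adjusted p of 0.00253 to 0.0497, and counts there among the inhibitors called. In the 4 fits it passed the filter only through its Control siRNA libraries, where it is higher. These p-values are therefore no support for a decrease, and the sizes rest on a few reads. Of 6462 called genes 3355 were higher and 3107 lower, a split that became 2815 and 3975 with upper-quartile scaling and 2852 and 3906 with library size alone; the cause was not tested.

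Same-numbered libraries of the groups did not deviate together (correlations of −0.00906, −0.0149 and −0.0218). This cannot show whether the cultures were set up in pairs. With a replicate block 6512 genes were called and no inhibitor's call changed. The exact permutation p of both log2 ratios was then 0.25, the smallest that 3 pairs can give. The differences stayed at 3.30 and −1.66. Leaving out a library gave differences of 3.13 to 3.42 and −1.79 to −1.53. Their permutation p was 0.2, again the smallest possible with so few libraries. The share of CDKN1A differed by 43.1 percentage points between groups, by 42.8 to 43.6 with a library left out, and by 49.3 without division by gene length, since CDKN1A is longer than CDKN3 and CDKN2D. Low counts limit CDKN2A and CDKN2B above all, and why they were low was not tested. Libraries of a group differed beyond sampling noise (chi-square of 3.3 to 7.87 per gene).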
